A study of Mus musculus with 6 samples.

Results

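Microtubules are polar polymers of tubulin that carry transport along the axons of sensory neurons, and a large set of proteins decides where they grow, how stable they are and where they are cut. Structural microtubule-associated proteins (MAPs) and doublecortins bind along the wall, plus-end factors act at the growing tip, and Camsap proteins hold the minus end. Stathmins sequester tubulin, collapsin response mediator proteins (CRMPs) carry or bind it, and katanin, spastin and fidgetin sever the polymer. The genes described here are 43 such genes, chosen by their symbols on a list of these families. No cut on a measured value was used, but the list was chosen with earlier results of these data known. All 43 of 43 were among the 16613 genes of the count table, and 43 of 43 passed the filter on low counts, against 15043 genes in all.

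Messenger RNA was sequenced from dorsal root ganglia, which hold the cell bodies of sensory neurons with their glia, of mice 6 months old. The control group was Kif2a fl/fl, with loxP sites flanking Kif2a on both chromosomes, and had 3 libraries. The knockout group was Kif2a fl/fl; Avil cre, which has those floxed alleles and in addition a Cre recombinase under control of the sensory neuron gene Avil, and also had 3 libraries. The series asks how Kif2a, a kinesin that takes microtubules apart at their ends, bears on nociception in sensory neurons. None of the groups carried Cre without the floxed alleles. Nothing in the labels ties each library to its own animal, and p-values therefore measure only the spread between these libraries, part of which may be technical.

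Values per library are given in the order of replicates 1, 2 and 3 throughout. Library totals ran from 16090726 to 19221415 counts, and the 43 genes took 1.79 to 2.36% of a library. Kif2a itself, the floxed gene, stood at 105.6, 93.9 and 92.7 CPM (the gene's reads scaled to a common library total, with library sizes adjusted by edgeR's TMM method) in the controls and at 90.6, 85.7 and 88.5 CPM in the knockouts. The mean of the knockouts was 90.6% of that of the controls, and the difference did not pass (edgeR adjusted p = 0.957, or 0.284 with the replicate block described below). A count over the whole gene cannot show the loss of its deleted part alone, and Kif2a shares exonic bases with Dimt1, which runs the other way. All 13 of 13 sensory neuron markers were above 1 CPM in every library, with a summed level of 12020 to 13062 CPM in the controls and 12115 to 13808 CPM in the knockouts, and 2 of them were lower at an adjusted p under 0.05 with that block. Control replicate 2 stood apart in its skeletal muscle markers, whose sum was 1220.4 CPM there and 5.63 to 55.6 CPM in the other 5 libraries. In bulk RNA, fewer cells of a type and less RNA per cell cannot be told apart.

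Of the 43 genes, Dcx, Eml1, Ckap5 and Eml5 were lower and Dpysl2, Map7d1 and Map2 higher in the knockout ganglia when libraries with the same replicate number were compared with each other. The other 36 genes did not pass. This outcome depends on the model. With group as the only term, 0 of 43 genes reached an adjusted p under 0.05 by edgeR's quasi-likelihood test, as did 0 of 15043 genes (0%). In that fit 5 of 43 genes had an unadjusted p under 0.05, namely Eml1, Dpysl2, Dcx, Eml5 and Ckap5, against 5.48% of all genes tested. DESeq2 without a block called Eml1 and Dpysl2, and limma-voom called 0.

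With the replicate number as a block, edgeR called 7 of 43 genes, against 3.6% of all genes tested. Here "rose" and "fell" mean an adjusted p under 0.05 in that blocked fit, where the p-value is adjusted over all 15043 genes. Of the 43 genes 3 rose, against 1.24% of all genes, and 4 fell, against 2.36% of all genes. Every such call rests on the pairing of libraries by number. The numbers are in the labels, but reading a shared number as a pair rests on the data and is not stated in the labels. For 9 of 43 genes the ranges of both groups were apart, 5 higher and 4 lower in the knockout, against 11.1% of all genes. Across the list 24 fold changes were positive and 19 negative, with a median log2 fold change, knockout minus control, of 0.02 beside 0.01 over all genes. In the authors' deposited table, 4 of the 43 genes had a false discovery rate under 0.05, against 0.849% of its 16613 genes. Those 4 were Eml1, Dpysl2, Dcx and Ckap5, and in the authors' deposited table the first 3 were also past a fold of 1.5.

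**Figure D1:**
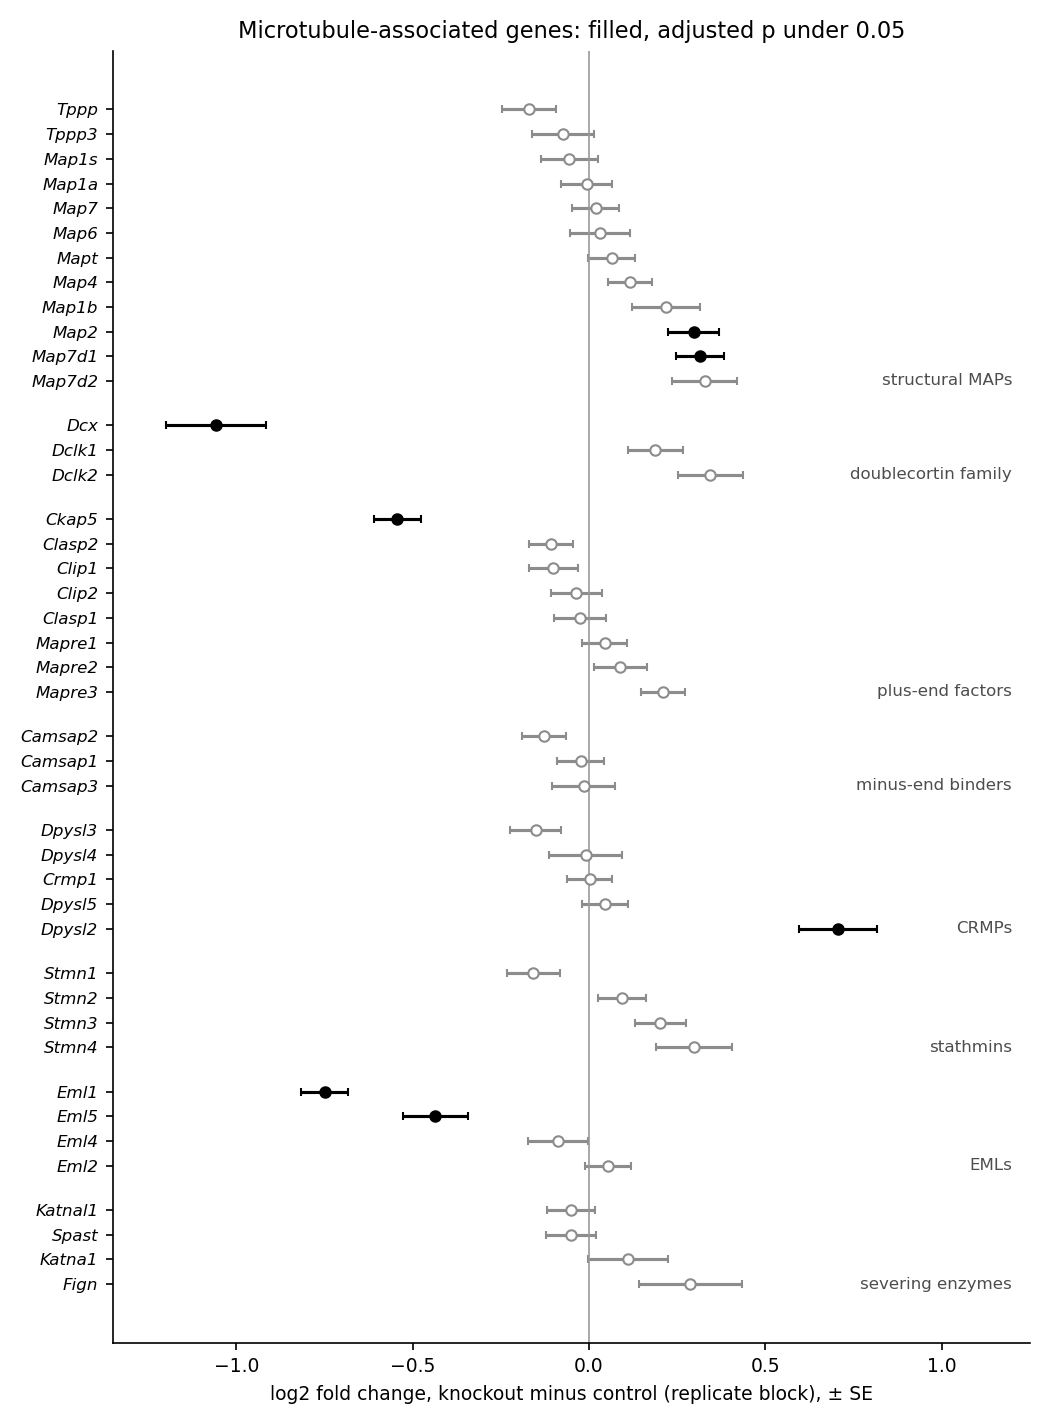
Log2 fold change of each of the 43 genes, knockout minus control, from the edgeR fit with the replicate block (x axis), with bars of ± SE, grouped by family along the y axis. Filled points are the 7 genes with an adjusted p under 0.05 in that fit. The 4 that fell run from -0.44 (Eml5) to -1.06 (Dcx), and the 3 that rose from 0.30 (Map2) to 0.71 (Dpysl2).

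The EML proteins, relatives of an echinoderm microtubule protein, hold propeller domains and bind microtubules. Eml1, in which mutations cause misplaced cortical neurons in mice, lies on chromosome 12 from 108370957 to 108539617 on the plus strand (mm10). Eml1 had 465, 473 and 424 CPM in the controls and 296, 263 and 252 CPM in the knockouts. Every knockout library was below every control library, and the gap between the groups was wider than the range within either. Eml1 fell by 0.75 on the log2 scale (SE 0.07, edgeR adjusted p = 0.000148 with the block, 0.303 without), and its knockout mean was 59.6% of the control mean. Among the 43 genes it had the smallest p in both fits.

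Eml5 was expressed at a far lower level than Eml1. Its values were 26.0, 29.4 and 26.9 CPM in the controls against 20.2, 21.6 and 19 CPM in the knockouts, again with no overlap. Eml5 fell by 0.44 (SE 0.09, edgeR adjusted p = 0.0263 with the block, 0.712 without). The call was lost with pair 1 left out (adjusted p = 0.108) and with DESeq2 in the blocked design (adjusted p = 0.0994). Exons of Eml5 share 1250 bases with Zc3h14 and Gm48062 on the other strand, and those of Eml1 share 319 bases with Gm16596. No source used here says whether counting used strand, and reads in those stretches cannot be told apart. Of the other listed members of the family, Eml2 had 111.9 ± 27.1 CPM in the controls and 117.0 ± 33.3 CPM in the knockouts (SD, n = 3). Eml4 had 29.6 ± 0.287 and 27.9 ± 1.71 CPM, and neither gene passed. Eml3 and Eml6, outside the list, had blocked log2 fold changes of -0.14 and -0.28 (SE 0.10 and 0.13) and did not pass either.

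Dcx encodes doublecortin, a protein of young migrating neurons that binds between the protofilaments of the microtubule wall. It was near the bottom of the list in abundance, with 202, 249 and 149 reads in the controls and 91, 123 and 72 reads in the knockouts. In scaled values this was 11.3, 14.7 and 8.31 CPM against 4.82, 7.19 and 4.44 CPM. No knockout library reached the lowest control, and in both groups replicate 2 was the highest and replicate 3 the lowest. Dcx fell by 1.06 (SE 0.14, edgeR adjusted p = 0.0022 with the block, 0.614 without), to 47.9% of the control mean, the largest fold change among the 43 genes in either fit. Dclk1 and Dclk2, kinases of the family that join a doublecortin domain to a kinase domain, did not pass. Dclk1 had 185.2 ± 24.3 CPM in the controls and 210.1 ± 13.3 CPM in the knockouts, and Dclk2 had 50.8 ± 15.1 and 63.2 ± 9.96 CPM (SD, n = 3). Both were higher in 3 of 3 pairs. Their blocked log2 fold changes were 0.19 and 0.34 (SE 0.08 and 0.09, edgeR adjusted p = 0.22 and 0.0746). Dclk3, a relative outside the 43 genes, was lower in 3 of 3 pairs and did not pass. Its blocked log2 fold change was -0.21 (SE 0.09, edgeR adjusted p = 0.206).

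Plus-end factors sit on the growing tip of the microtubule, and of the 8 listed only Ckap5 passed in the blocked fit. Ckap5 is the polymerase that adds tubulin to that tip. Its level was 439, 552 and 408 CPM in the controls, and 325, 352 and 279 CPM in the knockouts. The groups did not overlap, and in both of them replicate 2 was the highest and replicate 3 the lowest. Ckap5 fell by 0.54 (SE 0.07, edgeR adjusted p = 0.00127 with the block, 0.712 without), and its knockout mean was 68.4% of the control mean. Ckap5 lies on chromosome 2, and the small nucleolar RNA gene Snord67 lies within its exons on the same strand.

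The other 7 plus-end genes did not pass. Mapre1, Mapre2 and Mapre3 encode the end-binding proteins that track the tip and recruit the rest. Their blocked log2 fold changes were 0.04, 0.09 and 0.21 (SE 0.06, 0.08 and 0.06), and only Mapre3 was higher in 3 of 3 pairs. Mapre1 was among the steadiest of the genes, with 220.5 ± 7.72 CPM in the controls and 227.4 ± 8.91 CPM in the knockouts (SD, n = 3). Clasp1 and Clasp2, which rescue shrinking microtubules, were at -0.02 and -0.11, and Clip1 and Clip2, linker proteins of the tip, at -0.10 and -0.04 on the log2 scale.

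The promoters of the 4 genes that fell are shown because these genes share the direction of their calls, by which they were picked, and the lines let their base composition and common promoter elements be compared. Each line runs 5′ to 3′ along the gene's strand, from 250 bases before to 50 bases after the RefSeq start (300 bases, GRCm38.p6). Where a gene had several starts the most upstream was taken, which need not be the one used in ganglia. Capitals mark matches, on either strand, to the motifs searched, which were the AP-1 site TGANTCA, the cyclic AMP response element TGACGTCA, the GC box GGGCGG, the TATA element written as TATAAA, and the CCAAT box.
Eml1, plus strand, chr12:108370903-108371202: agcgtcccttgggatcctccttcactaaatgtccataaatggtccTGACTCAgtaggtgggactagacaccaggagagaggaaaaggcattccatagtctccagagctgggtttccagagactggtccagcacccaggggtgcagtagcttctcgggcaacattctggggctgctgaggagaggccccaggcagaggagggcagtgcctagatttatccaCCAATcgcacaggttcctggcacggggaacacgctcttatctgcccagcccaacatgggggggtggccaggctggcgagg
Dcx, minus strand, chrX:143933170-143933469: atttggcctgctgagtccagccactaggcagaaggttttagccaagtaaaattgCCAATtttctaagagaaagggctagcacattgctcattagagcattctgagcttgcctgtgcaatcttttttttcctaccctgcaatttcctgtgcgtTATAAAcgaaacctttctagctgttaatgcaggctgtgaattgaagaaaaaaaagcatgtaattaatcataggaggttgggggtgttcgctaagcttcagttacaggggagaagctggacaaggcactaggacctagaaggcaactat
Ckap5, plus strand, chr2:91526512-91526811: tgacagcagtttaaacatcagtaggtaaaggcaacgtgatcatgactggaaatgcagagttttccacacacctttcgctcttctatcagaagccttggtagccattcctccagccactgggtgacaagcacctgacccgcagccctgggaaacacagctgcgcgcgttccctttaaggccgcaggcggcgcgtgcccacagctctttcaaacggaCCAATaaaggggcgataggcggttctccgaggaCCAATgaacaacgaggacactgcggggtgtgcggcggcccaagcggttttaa
Eml5, minus strand, chr12:98901435-98901734: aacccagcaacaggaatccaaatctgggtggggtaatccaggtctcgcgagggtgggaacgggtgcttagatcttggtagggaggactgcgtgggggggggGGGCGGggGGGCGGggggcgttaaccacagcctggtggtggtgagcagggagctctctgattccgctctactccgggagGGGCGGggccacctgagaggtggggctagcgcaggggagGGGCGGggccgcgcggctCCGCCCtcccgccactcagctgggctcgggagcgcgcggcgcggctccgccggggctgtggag

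The 4 promoters differed in makeup. That of Dcx was 43% G and C and held 1 TATAAA and 1 CCAAT, whereas that of Eml5 was 71.7% G and C and held 5 GC boxes and none of the other motifs. The Eml1 promoter, 58.3% G and C, held 1 TGANTCA and 1 CCAAT, and the Ckap5 promoter, 55.7% G and C, held 2 CCAAT. No motif searched was present in all 4. Over 32851 RefSeq mouse promoters of the same length, 7.81% held TGANTCA, 1.79% TGACGTCA, 35.7% GGGCGG, 13.6% TATAAA and 37.4% CCAAT, with a median of 52.7% G and C. These promoters were not limited to the most upstream start of a gene. Of the genes that rose, Map2 and Map7d1 had 77.7% and 70% G and C with 5 and 4 GC boxes, and Dpysl2 is named only. A match describes the letters of the window and is not shown to be a bound site.

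Among the 5 CRMP genes, Dpysl2 rose and the other 4 did not pass. Dpysl2 encodes a CRMP that binds tubulin dimers, promotes axon growth and acts in semaphorin signalling. Its level was 155.5, 176.6 and 157.6 CPM in the controls and 211.1, 273.8 and 325.1 CPM in the knockouts. All knockout libraries lay above all controls, and the knockouts were spread over a wider range than the controls. Dpysl2 rose by 0.71 on the log2 scale (SE 0.11, edgeR adjusted p = 0.0177 with the block, 0.614 without), and its knockout mean was 165.4% of the control mean. The rise was 0.83 without pair 1 and 0.54 without pair 3. Crmp1, Dpysl4 and Dpysl5 had blocked log2 fold changes of 0.00, -0.01 and 0.05 (SE 0.06, 0.10 and 0.07), and Dpysl3 had -0.15 (SE 0.07).

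Structural MAPs were the largest group, with 12 genes, and 2 of them rose. Map7d1 belongs to the MAP7 family, which recruits kinesin-1 to microtubules. It had 248, 158 and 200.1 CPM in the controls and 331, 198 and 229.7 CPM in the knockouts. The groups overlapped, since control replicate 1 was above knockout replicates 2 and 3, but each knockout was above the control of its own number. Map7d1 rose by 0.31 (SE 0.07, edgeR adjusted p = 0.0276 with the block, 0.957 without), and the call was lost with pair 1 left out (adjusted p = 0.294).

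Map2, the MAP that spaces microtubules in dendrites, was at 221, 173 and 211 CPM in the controls and at 267, 239.9 and 234 CPM in the knockouts. The groups did not overlap, and replicate 1 was the highest in each. Exons of Map2 share 124 bases with Gm10558 on the other strand, and whether counting used strand is not given. Map2 rose by 0.30 (SE 0.07, edgeR adjusted p = 0.0494 with the block, 0.914 without). This call sat at the threshold and was lost with other size factors (adjusted p = 0.0505), with no filter on low counts (0.0514), and with pair 1 (0.25) or pair 2 (0.189) left out. Map7d2, another relative of Map7, showed a similar size of difference without passing in that fit. Its values were 1089, 809 and 1184 CPM against 1365, 1212 and 1251 CPM, which do not overlap, and its blocked log2 fold change was 0.33 (SE 0.09, edgeR adjusted p = 0.0904). With DESeq2 in the blocked design Map7d2 was called (adjusted p = 0.0143).

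The large axonal MAPs varied more between libraries of a group than between the groups. Map1b, an abundant MAP of growing axons, had 6871, 3437 and 5731 CPM in the controls and 8223, 4725 and 5491 CPM in the knockouts. Its groups overlapped, with replicate 2 the lowest in each, and it was not called, at a blocked log2 fold change of 0.22 (SE 0.10, edgeR adjusted p = 0.254). Map1a, its relative, ran from 824 to 1670 CPM in the controls and from 814 to 1839.9 CPM in the knockouts. Mapt, which encodes tau, had 291.9 ± 60.1 CPM in the controls and 304.2 ± 51.0 CPM in the knockouts (SD, n = 3). Map1s, Map4, Map6 and Map7 had blocked log2 fold changes of -0.06, 0.12, 0.03 and 0.02 and did not pass. Tppp, a tubulin polymerisation promoter, was at -0.17 (SE 0.08) and was lower in 3 of 3 pairs.

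**Figure D2:**
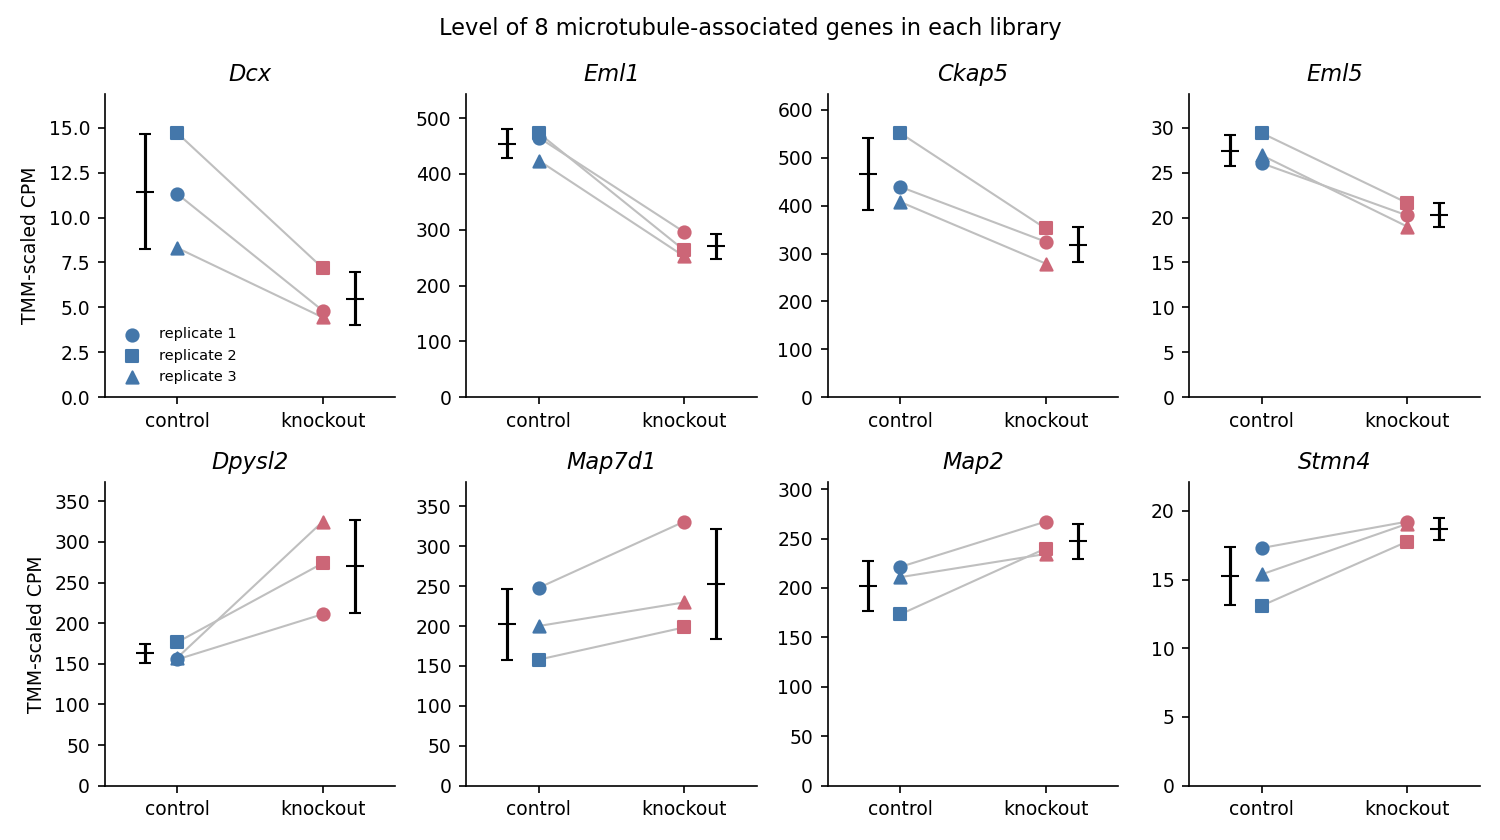
TMM-scaled CPM (y axis, linear, from 0) of 8 genes in each of the 6 libraries, with lines joining libraries of the same replicate number and bars giving the group mean ± SD (n = 3). Dcx, Eml1, Ckap5 and Eml5 are lower in all 3 knockouts, Dpysl2, Map2 and Stmn4 are higher in all 3, and Map7d1 overlaps between groups while each line rises.

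Stathmins bind free tubulin and keep it out of the polymer, and 0 of 4 passed. Stmn4 had the smallest p of the family in the fit without the block (unadjusted p = 0.0687), with 17.3, 13.1 and 15.4 CPM in the controls and 19.2, 17.8 and 19.1 CPM in the knockouts. The groups did not overlap, but it was not called, at a blocked log2 fold change of 0.30 (SE 0.11, edgeR adjusted p = 0.159). Stmn2, a neuronal stathmin of growing axons, had 2206, 2809 and 2435 CPM in the controls and 2391, 2895 and 2650.1 CPM in the knockouts. Stmn3, its close relative, had 953, 1224 and 1041 CPM in the controls and 1049, 1324 and 1334 CPM in the knockouts. For both, the groups overlapped while each knockout was above the control of its number. Their blocked log2 fold changes were 0.09 and 0.20 (SE 0.07 for each), with edgeR adjusted p-values of 0.492 and 0.153. Stmn1, expressed in many cell types, was at -0.16 (SE 0.08).

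Minus-end binders and severing enzymes held no gene that passed. Camsap2, which coats the minus ends of microtubules that are free of the centrosome, had 244, 236 and 200.1 CPM in the controls and 216, 217 and 189 CPM in the knockouts. Each knockout was below its numbered control, but the groups overlapped, and the blocked log2 fold change was -0.13 (SE 0.06, edgeR adjusted p = 0.301). Camsap1 and Camsap3 were at -0.02 and -0.01. Fign, which encodes the severing enzyme fidgetin, had 9.91, 6.61 and 9.81 CPM in the controls and 10.6, 10.3 and 10.9 CPM in the knockouts. Its groups did not overlap, yet 2 controls lay within 1 CPM of the lowest knockout, and its blocked log2 fold change was 0.29 (SE 0.15, edgeR adjusted p = 0.32). Spast, the gene of spastin, had 54.8 ± 2.85 CPM in the controls and 53.0 ± 3.40 CPM in the knockouts (SD, n = 3). Katna1 and Katnal1, which encode catalytic katanin subunits, had blocked log2 fold changes of 0.11 and -0.05.

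Levels were also set side by side per kilobase of exon, since longer transcripts give more reads. The exon length used is the union over annotated transcripts, which overstates the length of genes with alternative exons. On this scale Tppp3, a relative of Tppp, had the highest level in the controls, from 1213 to 1666 CPM per kilobase, above Stmn3 with 839 to 1077 and Stmn2 with 394 to 501. Map1b, with 217 to 434, and Map7d2, with 196 to 287 CPM per kilobase, came next. Control ranges of Tppp3, Stmn3 and Stmn2 did not overlap from one to the next, whereas those of Stmn2 and Map1b did, as did those of Map1b and Map7d2. Tppp3 had 2308, 3078 and 2243 CPM in the controls and 2005, 2665 and 2564 CPM in the knockouts, with a blocked log2 fold change of -0.07 (SE 0.09, edgeR adjusted p = 0.708).

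At the other end of the order, Dcx had 0.657 to 1.16 and Fign 0.663 to 0.994 CPM per kilobase in the controls, ranges that overlapped. Eml5 came just above them with 2.17 to 2.44 CPM per kilobase. The genes that passed were spread over the order of control levels, from Eml1 at place 9 and Ckap5 at place 11 to Eml5 at place 41 and Dcx at place 42. None of the 43 had a mean under 1 CPM, where 3 reads correspond to 0.159 to 0.185 CPM.

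**Figure D3:**
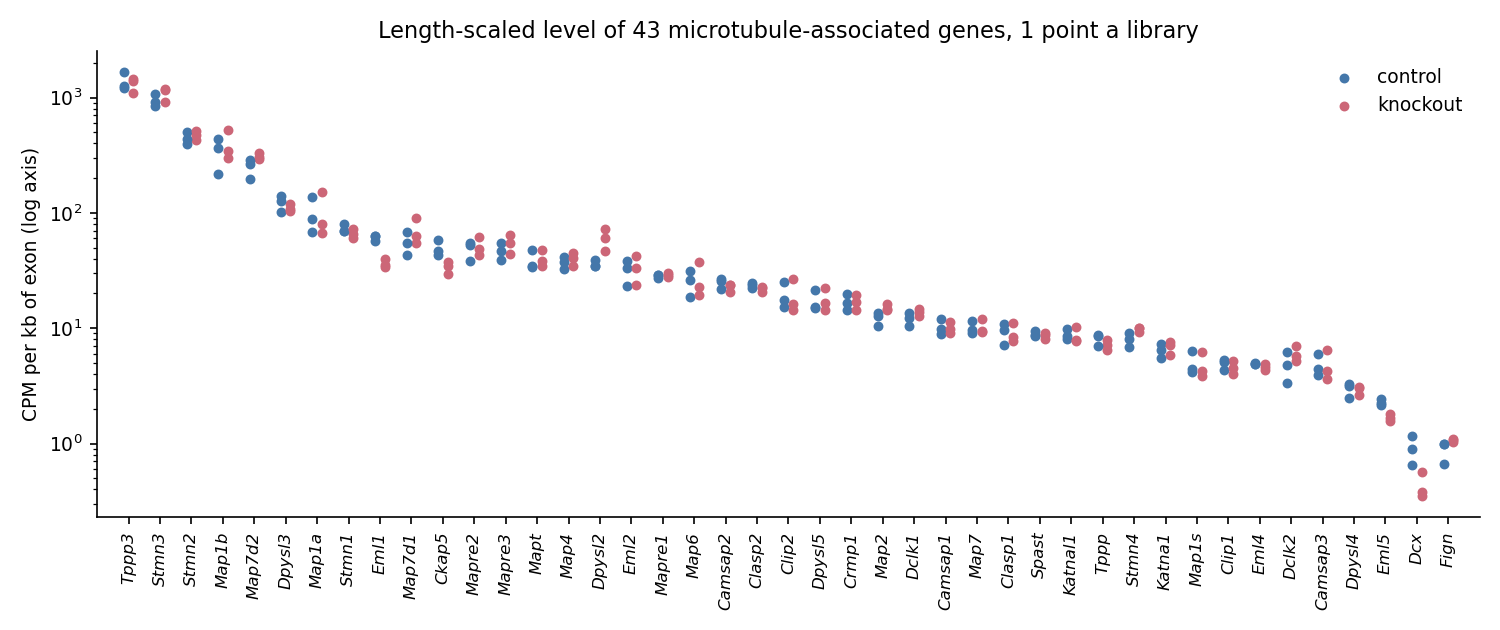
Length-scaled level of the 43 genes (y axis, CPM per kilobase of exon, log axis), ordered along the x axis by the control mean, with 1 point for each of the 6 libraries. Tppp3, Stmn3 and Stmn2 are at the top and Dcx and Fign at the bottom, and the points of the groups separate visibly for Eml1, Ckap5, Dpysl2, Eml5 and Dcx.

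Same-numbered libraries shared much of the variation of these genes for numbers 1 and 2, and less for number 3. Over the 43 genes, deviations from the group means correlated at 0.911, 0.848 and 0.357 for pairs 1, 2 and 3. From library 2 to library 1, 29 genes were higher in both groups, 12 were lower in both and 2 went opposite ways. Map1a had a log2 ratio of library 1 over library 2 of 1.02 in the controls and 1.18 in the knockouts, and Map6 had 0.76 and 0.96. Dcx went the other way, with -0.38 and -0.58. Over the 43 genes the Pearson correlation of these differences was 0.90, a description across genes of 4 libraries, since genes are not independent replicates. Against the union exon length the differences had a Spearman correlation of 0.22 in the controls and 0.18 in the knockouts.

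**Figure D4:**
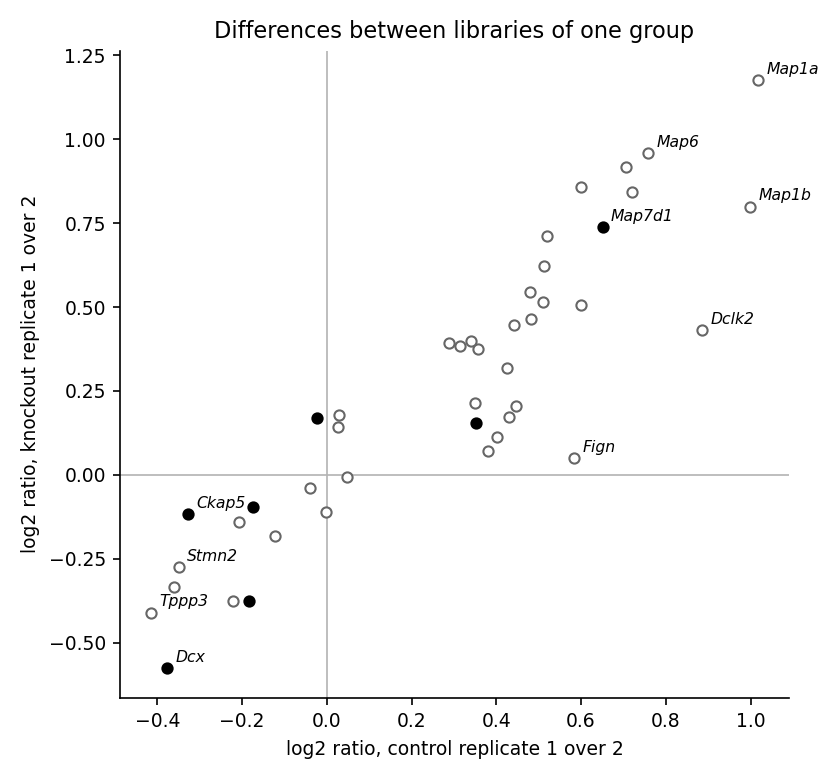
Log2 ratio of library 1 over library 2 in the controls (x axis) and in the knockouts (y axis), with 1 point for each of the 43 genes and filled points for the 7 that passed with the replicate block. Most points lie in the upper right (29 genes) or lower left (12 genes), with Map1a at 1.02 and 1.18 and Dcx at -0.38 and -0.58.

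With pair 2 left out, which holds the control library with muscle transcripts, Dcx (log2 fold change -1.07), Eml1 (-0.70), Ckap5 (-0.49), Eml5 (-0.43), Dpysl2 (0.75) and Map7d1 (0.31) still passed in the blocked fit. Map2 did not pass there (0.22, edgeR adjusted p = 0.189). Without pair 3, whose deviations from the group means correlated least, 10 genes passed, 5 higher and 5 lower in the knockout. They were the 7 above with Map1b (0.36) and Map7d2 (0.45), both higher, and Stmn1, which was lower. Dcx, Eml1, Ckap5 and Dpysl2 passed with each pair left out.

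Markers of sensory neuron types and of some other cells also differed between the groups. Of 12 non-peptidergic nociceptor markers 9 fell, and their summed level was 2277 to 2816 CPM in the controls against 1523 to 1763 CPM in the knockouts. Of 10 markers of myelinated mechanoreceptors and proprioceptors 4 rose, with sums of 10303 to 14354 CPM against 13580.0 to 18476 CPM. None of the 9 satellite glia markers passed. Their sums were 5901, 7279 and 6436 CPM in the controls and 6373, 8110.3 and 7871 CPM in the knockouts, also higher in each knockout than in the control of its number. Of 7 macrophage markers 2 rose, with summed levels of 62.1, 118.4 and 122.4 CPM in the controls and 76.8, 139.9 and 157.9 CPM in the knockouts, higher in each knockout than in the control of its number. Of 5 fibroblast markers 1 rose, with sums of 651 to 1297 CPM against 899 to 1468 CPM. The 9 markers of myelinating Schwann cells and the 5 of endothelium held no gene that passed. No gene of these lists was at 0 in any library. Their part in the values of Dcx, Eml1, Ckap5, Eml5, Dpysl2, Map7d1 and Map2 was not tested. Avil, which drives the Cre, had 44.7% of its control mean in the knockouts and fell by 1.16 (SE 0.07, edgeR adjusted p = 2.39e-05 with the block), so Kif2a loss, the Cre and lower Avil cannot be told apart here.

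Beyond the 43 genes, 71 other genes that act on microtubules were listed, of which 69 were tested. They comprise relatives of the families above, crosslinkers and cargo of end-binding proteins, spindle MAPs, tubulin folding cofactors, and kinases or phosphatases that act on MAPs. Without the block 0 of 69 passed and 0 had an unadjusted p under 0.05, and DESeq2 and limma-voom also called 0. With the block 1 of 69 rose and 1 of 69 fell, against 1.24% and 2.36% of all genes tested. Tacc2, of a family whose members bind Ckap5 at centrosomes, had 91.6, 65.0 and 63.3 CPM in the controls and 110.1, 79.9 and 91.8 CPM in the knockouts, and rose by 0.37 (SE 0.07, edgeR adjusted p = 0.0213). Mtcl1, a microtubule crosslinker, had 123.9, 89.4 and 88.6 CPM against 100.7, 76.0 and 72.1 CPM, and fell by 0.28 (SE 0.06, edgeR adjusted p = 0.04). For both the groups overlapped, and both calls were lost without pair 1 (edgeR adjusted p = 0.0947 for Tacc2 and 0.25 for Mtcl1). With DESeq2 in the blocked design Mtcl1 was not called either (adjusted p = 0.0897). The median log2 fold change of the 69 genes was 0.01, beside 0.02 for the 43 and 0.01 for all genes tested.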

How the data were processed

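Messenger RNA of dorsal root ganglia was sequenced in 3 control and 3 knockout libraries. Libraries were made from the poly(A) fraction of TRIzol-extracted RNA, per the labels' protocols. The submitters' processing notes name cutadapt, STAR, DESeq2 and mm10. Counter, annotation and strandedness were not given in the sources used here. As deposited, the data are 1 table of 16613 genes with raw counts per gene and library, per the file headers, and with their own log2 fold changes, p-values and false discovery rate. Its smallest total over the 6 libraries was 6 counts. A further 12 per-sample columns of normalised or transformed values were not used.

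The deposited counts went into edgeR 4.0.16 under R 4.3.3 (filterByExpr, minimum count 10, 15043 genes kept; TMM scaling; robust quasi-likelihood test on group alone; Benjamini-Hochberg adjusted p under 0.05). Values per library are TMM-scaled CPM, and an SE is the log2 fold change divided by the root of the F statistic. Alternatives were a replicate block, other size factors (RLE), no filter, DESeq2 1.42.0, limma-voom (limma 3.58.1), each library left out, and the block combined with RLE, no filter, DESeq2 or limma-voom or with each same-numbered pair left out. Gene positions and exon lengths are from GENCODE annotation of the same build, and promoters from RefSeq.

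Within a group, libraries differed beyond counting noise (chi-square per degree of freedom 11.3 to 51.4), so none was the same library merely sequenced again. This value cannot show whether the libraries came from separate animals. The groups share replicate numbers. Correlations of deviations from the group means were 0.529, 0.303 and 0.174 for pairs 1, 2 and 3, each above the level of 0.1 taken to pair samples. The highest between unlike numbers, 0.14, was also above that level, which therefore does not by itself separate pairs from other libraries. Pair 3 is the least certain. The same counts gave these correlations and the calls of the blocked fit. What a shared number stands for is not stated in the labels. Over the 43 genes the values were 0.911, 0.848 and 0.357. On simulated counts the blocked fit kept its share of false calls below the threshold when the spread followed the trend over genes, and exceeded it when each gene had its own estimated spread; the first of these settings was added after the outcome of the second was seen. Calls of the blocked fit may therefore hold more false calls than the threshold states. The simulated counts were built with the fitted differences between replicate numbers. They cannot show the share of false calls if a shared number does not mark a pair.

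The 43 genes, the other lists and the tests were chosen with earlier results of these data known. Genes have every library's value printed if they passed in either fit, had the smallest p of their family without the block, or were among the 5 highest per kilobase of exon.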

Additional observations from a re-analysis of the deposited data

How the results depend on the processing

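Without a block, 0 genes of the whole table, 0 of the 43 genes and 0 of the 69 other microtubule genes were called by edgeR, also with RLE size factors, with no filter, with limma-voom and with each library left out (0 to 0 called). DESeq2 without a block called 65 genes in all and 2 of the 43. The replicate block called 542 genes in all, 7 of the 43 and 2 of the 69. Blocked with RLE size factors the counts were 538, 6 and 2, with no filter 542, 6 and 2, with DESeq2 423, 7 (with Map7d2 and without Eml5) and 1, and with limma-voom 567, 7 and 2. With pair 1 left out of the blocked fit they were 208, 4 and 0, with pair 2 left out 819, 6 and 3, and with pair 3 left out 897, 10 and 2. Dcx, Eml1, Ckap5 and Dpysl2 were called in 8 of 8 blocked settings, Map7d1 in 7, Eml5 in 6 and Map2 in 4. The cause of these differences was not tested. The median log2 fold change of the 43 genes ran from -0.11 to 0.11 with single libraries left out, so its sign is not settled. Genes that were not called changed sign in the unblocked fit with 1 library left out: Stmn2 ran from -0.00026 to 0.20, with the lowest value without control replicate 1. Tppp3 ran from -0.16 to 0.091, positive without control replicate 2 (0.091) and without knockout replicate 1 (0.036). Map1b ran from -0.068 to 0.41, negative without control replicate 2 (-0.027) and without knockout replicate 1 (-0.068). The 3 libraries a group limit the precision of every value, and intervals from counting alone were not used.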
